A study of Mus musculus with 24 samples.

Results

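Wild-type (WT) cortex was followed from embryonic day 11.5 (E11.5) to E13.5, the days on which the cortical wall passes from a sheet of dividing progenitors to one that also makes neurons. The material was ventricular zone tissue of the embryonic cortex of C57BL/6 mice of Wildtype genotype, with no treatment stated, sampled as 3 libraries at each age and lettered A, B and C. The members were all genes with a value of at least 10 in at least 3 of these 6 libraries. They were 16054 of the 22529 genes of the deposited table (71.3%), and 13896 of them were protein coding. The same study holds WT libraries of later ages and libraries of embryos with a conditional knockout (cKO) of Prdm16, which encodes a zinc-finger regulator of transcription. It has 24 libraries in all. The cKO libraries of E11.5 and E13.5, 3 of each in the same strain, served here as a second, separately sampled course over the same days, of the other genotype. The sources used here do not give the Cre driver, the deleted part of the gene or the number of embryos in a library. Each p-value therefore measures the spread between these libraries, which may be technical in part.

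The ventricular zone lines the lateral ventricle and holds radial glia, the progenitors of cortical neurons and later of glia. Early on these cells divide mainly to enlarge their own pool. They then increasingly give rise to neurons, directly or through intermediate progenitors that express Eomes, and the neurons leave the zone for the cortical plate, the deep layers being made before the upper ones. The dorsal midline of the early cortex forms the hem, a source of WNT and BMP signals, and the ventral telencephalon beside the cortex makes interneurons under the DLX genes.

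The 6 libraries held between 33854831 and 36755563 reads, and between 15640 and 15923 genes reached a value of 10 in each. Values are normalized reads: a library's reads over its own size factor. WT library C at E11.5 stood apart in a particular way. Its values were closely approached by a weighted sum of 30.6% of library A and 68.3% of library B, with a median squared residual of 0.694 times counting noise, where counting alone would leave 0.455. Over the series, 5 C libraries gave such residuals, from 0.569 to 0.898: those of WT at E11.5 and E15.5 and of cKO at E11.5, E13.5 and E15.5. All other libraries gave at least 1.45, and the 3 WT libraries of E13.5 gave between 3.40 and 7.87. WT at E11.5 and the other groups of these 5 C libraries may thus each hold 2 independent libraries in place of 3. An SD given with n = 3 for such a group may understate its spread. The shared limma fit counts these 5 as independent libraries, so the SEs and p-values given below may be too small. Named genes whose call was lost without these 5 are therefore given below, and so are the list counts without them for many lists. The libraries also differed in sex-linked genes. Xist, the RNA that silences an X chromosome in female cells, read 42120.2, 13.9 and 10238 at E11.5 and 7.69, 11.3 and 13.1 at E13.5, and the Y-linked genes Ddx3y, Eif2s3y, Kdm5d and Uty read 0 to 0.91 in A, 779 to 1857 in B and 536 to 1296 in C at E11.5 and 1036 to 3618 over the 3 libraries of E13.5. No sex-linked gene is read as a change with age.

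Tissue identity was checked first. Emx1, which marks cortical progenitors, read 2401, 909 and 1301 at E11.5 and 3521, 3488 and 2639 at E13.5. Pax6, a regulator of cortical radial glia, read 6966, 8561 and 7914 at E11.5 and 8696, 10317 and 8073 at E13.5. All 6 libraries thus carried dorsal telencephalic genes at high levels, with levels of Pax6 that overlapped between the ages (0.21 ± 0.09, SE, adjusted p = 0.053). Pax6 was called higher without WT library B of E11.5 or C of E13.5 (0.27 to 0.28), and also with the letter as a block, TMM factors, a mean of at least 50 or DESeq2. Sox2, a factor that keeps neural progenitors dividing, read 10999, 11819.7 and 11410.0 at E11.5 and 6697, 8943 and 6277 at E13.5, lower in every E13.5 library than in any E11.5 library (-0.66 ± 0.20, SE, adjusted p = 0.0079). Prdm16 itself read 2206, 2030.2 and 2134 at E11.5 and 5329, 6369 and 4772 at E13.5. Every E13.5 library lay above every E11.5 library, a log2 fold change of 1.36 ± 0.14 (SE, adjusted p = 5.8e-07). In the cKO libraries it read 1046 ± 304 at E11.5 and 1847 ± 79.8 at E13.5 (SD, n = 3), below WT at each age. Fold changes here and below are E13.5 minus E11.5 on log2(value + 1), tested with limma over all 16054 genes. In bulk tissue, fewer cells of a type and less RNA per cell cannot be told apart.

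Between the ages, 9392 of the 16054 genes passed the test at an adjusted p of 0.05, which is 58.5% of all genes tested. Higher at E13.5 were 4956 (30.9%) and lower were 4436 (27.6%), and the median over all genes was -0.01. These shares are the background against which each gene group below is to be read. The column names of the WT libraries of E13.5 carry a 2 after the letter. Those of WT at E11.5 and of cKO at E13.5 do not, and its meaning is not stated. Age cannot be told apart from any other way in which the WT libraries of E11.5 and E13.5 differ as sets. The gene lists below hold 688 entries, of which 638 passed the filter on low values, and list counts are over those tested. The 3 values of E13.5 lay wholly above or wholly below the 3 of E11.5 in 10472 genes (65.2%). Large changes were mostly rises: 1884 genes rose and 828 fell by a log2 of at least 1, and 553 rose and 190 fell by at least 2. Among long noncoding RNAs of the lincRNA class, 131 of 379 rose and 58 fell. Among antisense transcripts, 392 in all, 157 rose and 26 fell, though the sources used here do not say whether the authors' counting used strand, so such genes may share reads with their partners. Leaving out the 5 C libraries, 6710 genes passed, 3759 higher and 2951 lower, and 6698 of these were among the 9392.

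The cKO course over the same days called 4362 genes (27.2%), 2667 higher (16.6%) and 1695 lower (10.6%). It uses libraries of its own, in another genotype. The courses share 1 fit over all 24 libraries, with its estimate of the spread, and genes filtered on the WT values. Of the WT genes that rose, 2345 (47.3%) also rose in the cKO course, and of those that fell 1406 (31.7%) also fell. The calls went opposite ways in 14 genes: 1 WT riser fell and 13 that fell in WT rose. Read from the other side, 87.9% of the cKO risers and 82.9% of the cKO fallers were called the same way in WT. The cKO course called 724 genes without the 5 C libraries, and 690 when only its own groups were fitted.

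**Figure D1:**
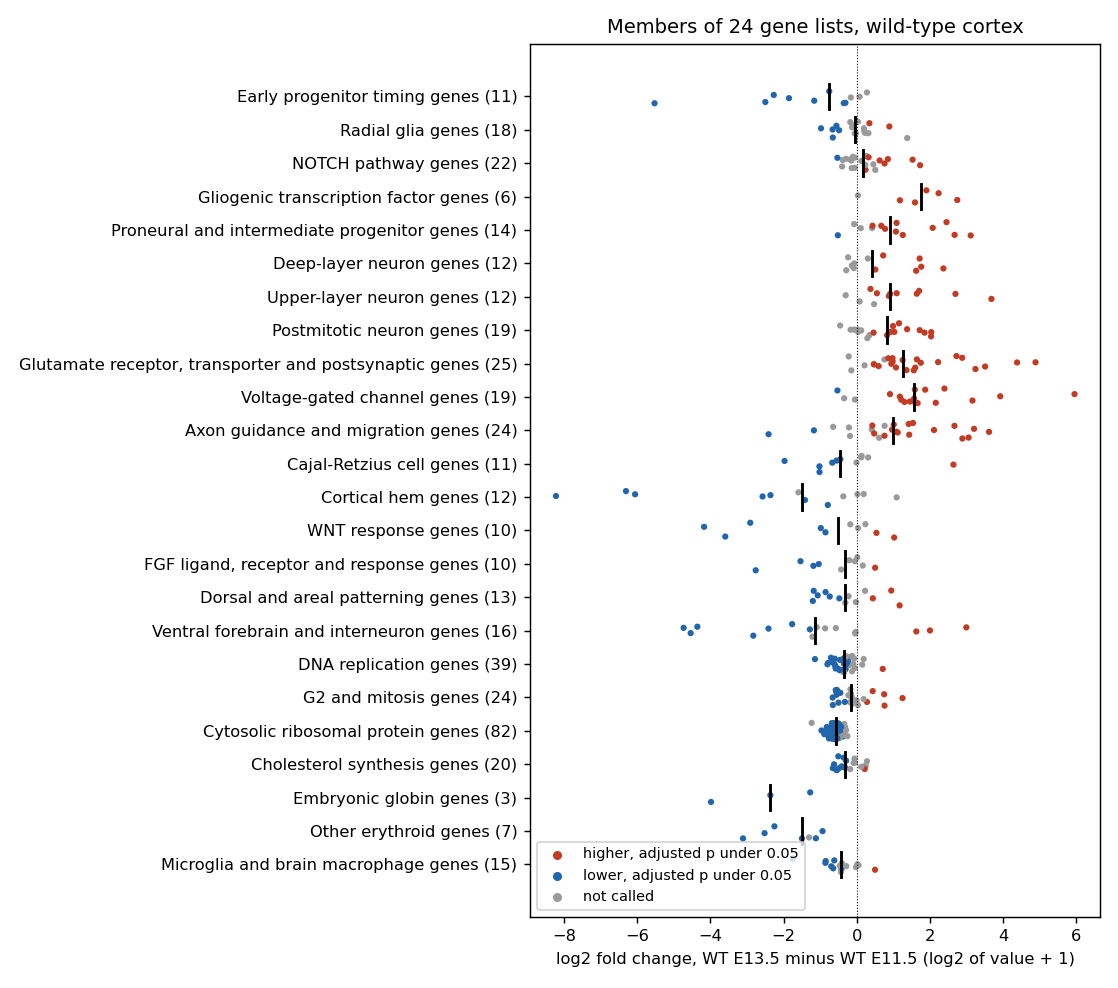
Log2 fold change from E11.5 to E13.5 in WT (horizontal axis, limma on log2(value + 1), n = 3 libraries an age) for the members of 24 gene lists (rows). Each point is a gene, coloured by whether it was called higher, lower or not at all, and the bar is the list's median. Synapse, ion channel and gliogenic genes lie mostly right of 0, and ribosomal, hem and embryonic globin genes lie mostly or wholly left of it.

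Genes that time the early progenitor state fell. Of 11 members of a list of early progenitor genes, 8 fell and none rose (median -0.75), 7 of them also in the cKO course. Lin28a, an RNA-binding protein that blocks the maturation of let-7 microRNAs, spans bases 134003330 to 134018841 of chromosome 4 (GRCm38, minus strand). Its level was 187, 90.0 and 105 at E11.5 and 0.961, 8.49 and 0 at E13.5. It was at or near 0 in every E13.5 library, a fitted change of -5.52 ± 0.62 (SE, adjusted p = 1.4e-06), and it fell in the cKO course too (-6.08). Trim71, a let-7 target and translational repressor whose worm counterpart is lin-41, read 147, 111 and 138 at E11.5 and 20.2, 31.1 and 17.8 at E13.5 (-2.50 ± 0.50, SE, adjusted p = 3.7e-04). Hmga2, a chromatin protein that maintains fetal stem cell self-renewal and is repressed by let-7, read 36194, 28816 and 31384 at E11.5 and 5599.8, 10529.6 and 4977 at E13.5 (-2.27 ± 0.34, SE, adjusted p = 2.8e-05). In both genes every E13.5 library lay below every E11.5 library. Prtg, an immunoglobulin superfamily receptor of the early neural tube, changed by -1.85 ± 0.43 (SE). Lin28b, the paralog of Lin28a, fell less steeply, from 865, 544 and 638 to 229.7, 417 and 278 (-1.16 ± 0.26, SE, adjusted p = 0.0011). Hmga1 (-0.75), Igf2bp1 (-0.35) and Arid3b (-0.31) fell by smaller amounts. Igf2bp2 (-0.16), Igf2bp3 (0.08) and the orphan receptor gene Nr6a1 (0.28) did not pass the test. Without the 5 C libraries, 7 of the 11 fell. Arid3b was not called without the 5 C libraries (-0.34), or without WT library A of E11.5 or A of E13.5 (-0.24 to -0.19), nor Igf2bp1 without WT library A of E11.5 or C of E13.5 (-0.28 to -0.20). Nr6a1 was called higher without WT library A of E11.5 or A of E13.5 (0.40 to 0.42).

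Since LIN28 proteins act on let-7 precursors, the transcripts that carry let-7 genes were read as well. Such a host transcript's level is no measure of the mature microRNA, which these polyA-selected libraries do not report. The mature sequences are given to show the shared seed (bases 2 to 8, in capitals) of the let-7 family and the separate seeds of the miR-125 and miR-99/100 families that are transcribed with it. They are RefSeq's for GRCm38.p6, written 5′ to 3′.
let-7e, host Spaca6: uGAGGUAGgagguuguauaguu
let-7f, hosts Huwe1 and 6720427I07Rik: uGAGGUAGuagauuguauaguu
miR-98, host Huwe1: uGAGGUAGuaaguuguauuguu
let-7g, host Wdr82: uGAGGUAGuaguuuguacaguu
let-7c, host Mir99ahg: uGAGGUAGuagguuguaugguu
miR-125a, host Spaca6: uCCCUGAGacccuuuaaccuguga
miR-125b, host 2610203C20Rik: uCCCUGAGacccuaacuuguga
miR-100, host 2610203C20Rik: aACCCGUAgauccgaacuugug
miR-99a, host Mir99ahg: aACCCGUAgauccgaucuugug
The let-7 members share the seed GAGGUAG, miR-125a and miR-125b share CCCUGAG, and miR-99a and miR-100 share ACCCGUA. The let-7e hairpin lies on chromosome 17 from 17830352 to 17830444 and the miR-98 hairpin on chromosome X from 151913214 to 151913321, both on the plus strand.

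The hosts did not move together. Values with exon length taken out come from libraries each corrected for its trend on exon length, an alternative chosen after seeing the data and described with the length values below. Spaca6, which carries let-7e and miR-125a, read 884, 488 and 559.8 at E11.5 and 1767, 2028 and 1635 at E13.5 and rose (1.53 ± 0.30, SE, adjusted p = 0.00028), also with exon length taken out (1.30). Huwe1, a ubiquitin ligase gene with a very long transcript that carries let-7f-2 and miR-98, rose by 1.26 ± 0.27 (SE) and by 0.23 with exon length taken out. The noncoding host 2610203C20Rik, of miR-125b-1, miR-100 and let-7a-2, read 4223, 7289 and 6322 at E11.5 and 10895, 14055 and 12571 at E13.5, a rise of 1.10 ± 0.19 (SE) that was not called with exon length taken out (0.06). Mir99ahg (0.75) and 6720427I07Rik (0.03), the host of let-7a-1, let-7d and let-7f-1, did not pass. Wdr82, with let-7g, was called lower (-0.19), but not without the 5 C libraries. In the cKO course Spaca6 (0.48) and Huwe1 (0.27) did not pass, and 2610203C20Rik rose by 0.83. Arpp21, the host of miR-128-2, a neuronal microRNA, read 34.6, 69.6 and 61.3 at E11.5 and 340.2, 301 and 626 at E13.5, a rise of 2.90 ± 0.29 (SE) that the cKO course shared (2.66). R3hdm1, the more abundant host of miR-128-1, had a mean of 4033 at E11.5 and 6397 at E13.5. It rose by 0.66 ± 0.13 (SE) but was called lower with exon length taken out (-0.56).

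Most of the listed gliogenic factor and astroglial genes rose. Which cells carried these rises was not tested. In a list of 6 gliogenic transcription factors 5 rose and none fell (median 1.75), and the same 5 rose in the cKO course and without the 5 C libraries. Nfix, a nuclear factor I gene that advances progenitors toward late fates, read 2803, 1289 and 1691 at E11.5 and 16266, 8558 and 13238 at E13.5 (2.74 ± 0.33, SE, adjusted p = 2.6e-06). Nfib, its family member, read 7209, 7033 and 6828 at E11.5 and 36484, 27607 and 35892 at E13.5 (2.24 ± 0.19, SE, adjusted p = 8.2e-08), and Nfia, the third of the family here, changed by 1.59 ± 0.12 (SE). Zbtb20, a zinc-finger repressor active in late progenitors and astrocytes, rose by 1.90, and Sox8 by 1.18. In the NFI genes the lowest E13.5 library lay well above the highest E11.5 library. Sox9, which is already needed in early neural stem cells, was level (0.03 ± 0.13, SE). Of 10 astroglial genes 8 were tested, as Gfap and S100b were too low to pass the filter, and 5 of the 8 rose (median 0.93). Aldoc, an aldolase isoform of astroglia, read 267, 498 and 438 at E11.5 and 7903, 5361 and 6963 at E13.5 (4.10 ± 0.30, SE, adjusted p = 1.1e-08), and Bcan, which encodes a brain proteoglycan, rose by 3.62 ± 0.72 (SE). Sparcl1 (1.20), Aqp4 (0.78) and the glutamate transporter gene Slc1a2 (1.01) rose less, and Gja1 (-0.55) and Apoe (-0.44) did not pass. Slc1a2 was not called with exon length taken out (0.39), nor Aqp4 without the 5 C libraries (0.71), without WT library B or C of E11.5 or A of E13.5 (0.54 to 0.74), or with exon length taken out (0.62). Gja1 was called lower with exon length taken out (-0.99), and Apoe without WT library B of E13.5 (-0.56).

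Radial glia genes did not move one way. Of 18 listed, 2 rose and 5 fell (median -0.04). Pdpn (-0.98), Sox2, Hopx (-0.65), Vim (-0.56), which encodes the intermediate filament vimentin, and Mfge8 (-0.48) fell. Slc1a3, the glutamate transporter GLAST, read 2199, 3136 and 2951 at E11.5 and 4052, 5496 and 5819.9 at E13.5 and rose (0.89 ± 0.15, SE, adjusted p = 7.5e-05). The NOTCH effectors Hes1 (-0.18) and Hes5 (-0.05), the filament gene Nes (0.20) and Fabp7 (-0.13) did not pass. Hopx lost its call when exon length was taken out (-0.32). In the NOTCH pathway, through which neighbouring cells keep each other undifferentiated, 7 of 22 genes rose and 1 fell (median 0.18). The receptors Notch1 (1.52 ± 0.31, SE, adjusted p = 4.3e-04) and Notch2 (1.73 ± 0.18, SE, adjusted p = 6.2e-07) rose most. None of the delta ligands Dll1, Dll3 and Dll4 passed, though Dll1 was called higher without WT library A of E11.5 (0.48). Hes1 was called lower without WT library B of E13.5 (-0.43), and Vim was not called without the 5 C libraries (-0.55). Without WT library B of E13.5, 7 NOTCH genes rose and 4 fell. Without the 5 C libraries 4 rose and none fell, and Jag2 (0.85) was then not called, nor without WT library B of E11.5 (0.69). Of 8 genes of neuroepithelial junctions and polarity, Tjp1 and Pard3 rose and Crb2 fell (0.38, 0.31 and -0.47). Each call was lost in at least 2 of the 6 fits that left out 1 WT library, at 0.25 to 0.38 for Tjp1, 0.20 to 0.32 for Pard3 and -0.39 to -0.29 for Crb2. No member was called without the 5 C libraries, and Pard3 turned to -0.38 when exon length was taken out.

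Intermediate progenitor and early neuronal genes rose together. Of 14 genes of the intermediate progenitor list 10 rose and 1 fell (median 0.92), and 7 rose in the cKO course. Eomes, the T-box factor that defines these cells, read 5999, 7372 and 6739 at E11.5 and 14851, 12588 and 14715 at E13.5 (1.07 ± 0.10, SE, adjusted p = 1.9e-07). Neurog2, the proneural factor that starts excitatory neurogenesis in the cortex, rose by 1.26 and its target Neurod1 by 1.09. Neurod6, a factor of newly made cortical neurons, read 1087, 2794 and 2183 at E11.5 and 17203, 11163 and 22305 at E13.5 (3.11 ± 0.26, SE, adjusted p = 4.4e-08), and Neurod2 rose by 2.67 ± 0.19 (SE). In Neurod6 the lowest E13.5 library was several times above the highest E11.5 library. Of 19 general neuronal genes 11 rose and none fell (median 0.83), and 15 rose in the cKO course. Rbfox3, which encodes the neuronal antigen NeuN, rose by 2.03 ± 0.12 (SE), Myt1l by 2.03 ± 0.24 (SE) and Mapt, the gene for tau, by 1.72 ± 0.24 (SE). Some neuronal genes of the cytoskeleton and growth cone did not pass: Tubb3 (-0.17), Stmn2 (0.12), Gap43 (0.35) and Nefl (-0.45). Gap43 was called higher without WT library B of E11.5 or B of E13.5 (0.47 to 0.48), or with exon length taken out (0.68).

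**Figure D2:**
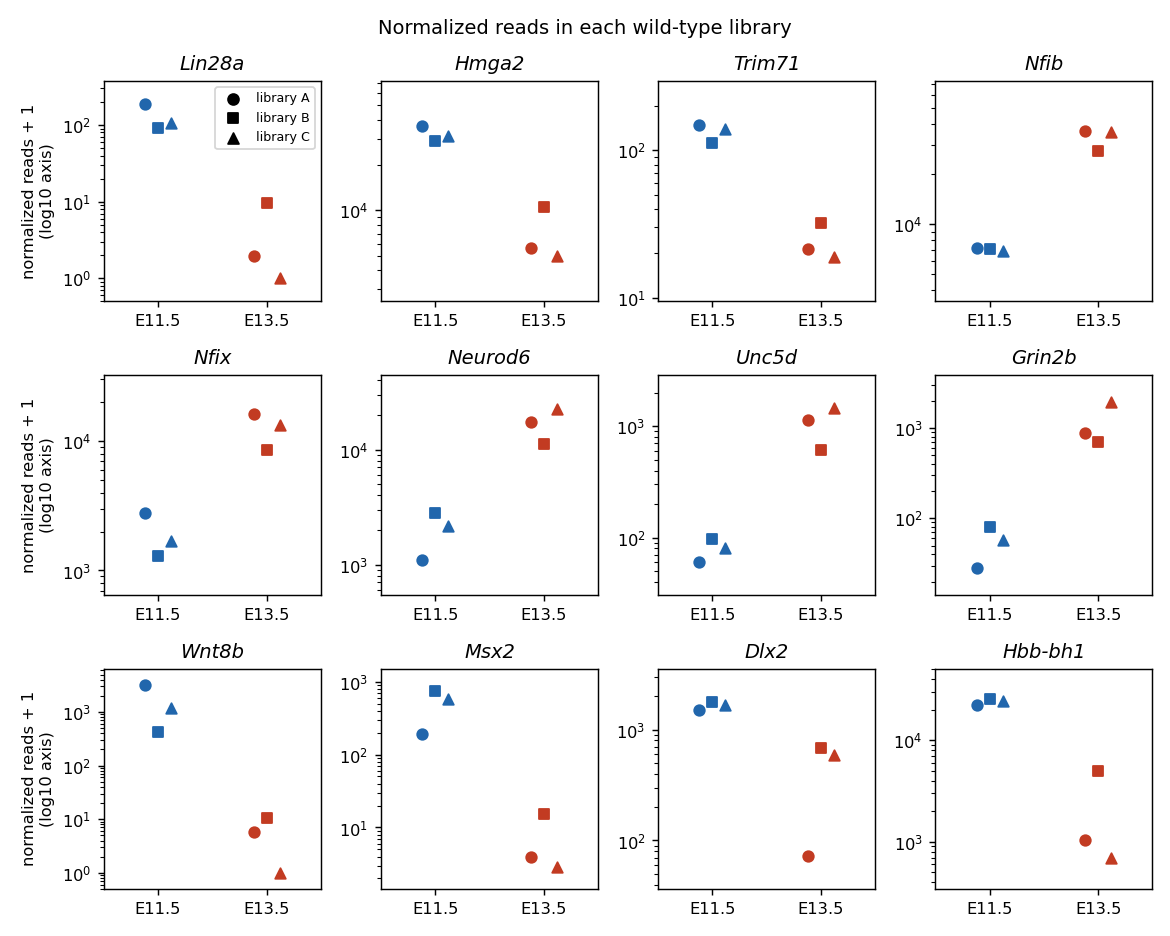
Normalized reads plus 1 (log10 vertical axis) of 12 genes in each WT library at E11.5 and E13.5, with the letter of the library as the marker shape. Lin28a, Hmga2 and Trim71 are lower and Nfib, Nfix, Neurod6, Unc5d and Grin2b higher in every E13.5 library than in any E11.5 library, and the hem genes Wnt8b and Msx2 reach 0 to 14.2 at E13.5.

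Layer genes moved in unequal steps. Of 12 upper-layer genes 9 rose and none fell (median 0.89). Unc5d, a netrin receptor gene of multipolar cells and upper-layer neurons, read 60.1, 95.5 and 79.8 at E11.5 and 1134, 608 and 1443 at E13.5 (3.68 ± 0.29, SE, adjusted p = 2.8e-08). Bhlhe22 rose by 2.70 ± 0.22 (SE). Of 12 deep-layer genes 6 rose and none fell (median 0.40). Zfpm2 (2.37), Pcp4 (1.76), Bcl11b (1.72), which specifies subcerebral projection neurons, Sox5 (1.62) and Tbr1 (0.72) were among those that rose. Fezf2 (0.30 ± 0.15, SE), Foxp2 (-0.13) and Tle4 (-0.29) did not pass. With exon length taken out, 7 deep-layer genes rose and 3 fell. Fezf2 was called higher without WT library A of E11.5 or B of E13.5 (0.42 to 0.45), or with exon length taken out (0.45). Foxp2 was called lower with exon length taken out (-0.91), and Tle4 without WT library B of E13.5 (-0.47), or with exon length taken out (-0.41). Of 7 subplate genes, St18 (0.93), Tmem178 (0.84) and Nr4a2 (0.79) rose. Cajal-Retzius cells, early-born neurons at the cortical surface, come in part from the hem. Of 11 of their genes 6 fell and 1 rose (median -0.45). Reln, the secreted protein that guides migrating neurons and is made by these cells and others, read 1284, 1605 and 1476 at E11.5 and 8773, 9835 and 8569 at E13.5 and rose (2.64 ± 0.42, SE, adjusted p = 5.3e-05). Barhl2 read 341, 439.6 and 421 at E11.5 and 45.2, 302 and 74.2 at E13.5 and fell (-1.97 ± 0.53, SE, adjusted p = 0.0039), and Ebf2 (-1.02), Ndnf (-0.67), Nhlh2 (-0.55) and Ebf3 (-0.45) fell less. Calb2 (-1.02) was also called lower, but not without the 5 C libraries (-0.94), without WT library B or C of E11.5 or A or C of E13.5 (-0.94 to -0.66), or with exon length taken out (-0.72). Trp73 (0.31 ± 0.46, SE), a defining gene of hem-derived Cajal-Retzius cells, and Lhx5 (0.13) did not pass. Ndnf was not called without the 5 C libraries (-0.63), or without WT library A, B or C of E11.5 or A of E13.5 (-0.70 to -0.18), nor Ebf3 without the 5 C libraries (-0.42), or without WT library A or C of E11.5 or A or C of E13.5 (-0.42 to -0.34). Of the 11, 3 fell without the 5 C libraries and also without WT library C of E11.5 or A of E13.5.

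Genes of excitatory synapses rose widely. Of 25 genes for glutamate receptors, transporters and postsynaptic scaffolds 20 rose and none fell (median 1.25), and 19 rose in the cKO course. Grin2b, the NMDA receptor subunit of the embryonic brain, read 27.3, 79.8 and 56.5 at E11.5 and 866, 705 and 1928 at E13.5 (4.38 ± 0.58, SE, adjusted p = 7.4e-06). Grm5, a metabotropic glutamate receptor, read 1.82, 4.64 and 9.74 at E11.5 and 134, 93.4 and 344 at E13.5 (4.88 ± 0.70, SE, adjusted p = 1.8e-05). Both were low in every E11.5 library, and every E13.5 library lay above them. Dlg2 rose by 3.51 ± 0.55 (SE), Camk2b by 3.24 ± 0.34 (SE) and the AMPA receptor gene Gria2 by 2.88 ± 0.32 (SE). Grin2a (-0.22) and Camk2a (-0.15), which serve more mature synapses, did not pass, though Grin2a was called lower with exon length taken out (-1.06) and Camk2a with exon length taken out (-0.41). Of 19 voltage-gated channel genes 16 rose and 1 fell (median 1.57). Kcna1, a potassium channel gene, read 4.55, 0 and 1.95 at E11.5 and 203, 60.4 and 306 at E13.5 (5.95 ± 0.64, SE, adjusted p = 9.0e-07). Kcnq3 rose by 3.92 ± 0.35 (SE) and the calcium channel gene Cacna1e by 3.16 ± 0.51 (SE), while Kcnh2 fell (-0.53), but not without WT library A of E11.5 (-0.38). With exon length taken out, 19 synapse genes rose and 3 fell, and 14 channel genes rose and 1 fell.

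Of 24 axon guidance genes 16 rose and 2 fell (median 0.99). Dcc, the netrin receptor, read 1244, 204 and 383 at E11.5 and 5086, 5197 and 6773 at E13.5 (3.61 ± 0.74, SE, adjusted p = 4.7e-04), whereas its ligand gene Ntn1 read 1379, 1504 and 1419.5 at E11.5 and 94.2, 481 and 428 at E13.5 and fell (-2.41 ± 0.79, SE, adjusted p = 0.014). The call of Ntn1 was lost without the 5 C libraries (-2.42), or without WT library A of E13.5 (-1.66). Slit1 rose by 3.20 ± 0.35 (SE), the plexin gene Plxna4 by 3.05 ± 0.28 (SE), and Efna5, an ephrin that patterns cortical areas, fell (-1.17). With exon length taken out 12 of the 24 rose and 4 fell (median 0.49), and without the 5 C libraries 13 rose and 1 fell. Among 16 neural RNA-binding and splicing genes 8 rose and 1 fell (median 0.63). Srrm4, which drives neuronal microexon inclusion, rose by 1.59 ± 0.14 (SE) and Rbfox1 by 1.63 ± 0.35 (SE), and Nova1 fell (-0.74). The repressor Ptbp1 (-0.17) and its neuronal paralog Ptbp2 (0.00) did not pass. With exon length taken out, 7 of these RNA-binding and splicing genes rose and 5 fell (median -0.04), Ptbp2 among those that fell (-0.37). Subunits of the BAF chromatin remodelling complex, which swaps progenitor for neuronal subunits as cells leave the cycle, moved both ways. The progenitor subunit genes Actl6a (-0.37 ± 0.09, SE), Phf10 (-0.24 ± 0.07, SE) and Ss18 (-0.19 ± 0.06, SE) fell, and the neuronal ones Actl6b (0.94 ± 0.20, SE), Dpf3 (1.93 ± 0.36, SE) and Ss18l1 (0.86 ± 0.10, SE) rose. Dpf1 (0.21), a neuronal subunit gene too, did not pass. Phf10 was not called without the 5 C libraries (-0.24), nor Ss18 without the 5 C libraries (-0.18), or without WT library C of E11.5 or C of E13.5 (-0.18 to -0.15). Over 19 chromatin genes 9 rose and 5 fell (median 0.30). These became 6 and 7 with exon length taken out (median 0.11), and without the 5 C libraries 8 rose and 3 fell. Dnmt3b, the early de novo DNA methyltransferase, fell (-0.74), and Tet1 (0.85), Tet2 (1.55) and Tet3 (0.87) rose. Tet1 was not called with exon length taken out (0.11), nor Tet3 with exon length taken out (0.08).

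DNA replication genes fell by small amounts. Of 39 genes of S phase 27 fell and 1 rose (median -0.35). Ccne1, the cyclin that starts replication, read 2153, 1991 and 2002 at E11.5 and 1117, 875 and 817 at E13.5 (-1.14 ± 0.13, SE, adjusted p = 1.1e-06), and Rfc4, a subunit of the clamp loader, read 3158, 3776 and 3718 at E11.5 and 2246, 1972 and 1893 at E13.5 (-0.80 ± 0.13, SE, adjusted p = 4.4e-05). Pcna (-0.58), Rrm2 (-0.57) and the helicase genes Mcm3 to Mcm7 (-0.27 to -0.36) were among the others that fell. Pole, the gene of a replicative polymerase with a long transcript, was the one that rose (0.71), and it was not called with exon length taken out (0.20). Mcm3 was not called without the 5 C libraries (-0.30), without WT library A of E11.5 or A or C of E13.5 (-0.29 to -0.21), or with exon length taken out (-0.21), nor Mcm7 without the 5 C libraries (-0.27), or without WT library A of E11.5 or C of E13.5 (-0.24 to -0.20). In the cKO course 3 of the 39 fell, and without the 5 C libraries 19 did in WT. G1 regulators split. Ccnd3 (-1.23 ± 0.24, SE), Ccnd1 (-0.95 ± 0.20, SE), Cdk4 (-0.53) and Cdkn1a (-0.66) fell, and Ccnd2 (0.86 ± 0.15, SE), Cdk6 (1.65 ± 0.15, SE) and the inhibitor genes Cdkn1b (0.67) and Cdkn2c (0.52) rose. Cdkn1a was not called without the 5 C libraries (-0.64), without WT library A or C of E11.5 or A or C of E13.5 (-0.64 to -0.49), or with exon length taken out (-0.56). Ccnd1, a D cyclin gene, read 17625, 12039 and 13918 at E11.5 and 6818, 9152 and 6547 at E13.5. Ccnd2, the more abundant of these 2 genes at both ages, read 54689, 47934 and 49696 at E11.5 and 97234, 92830.4 and 85532 at E13.5. Neither gene's values overlapped between the ages.

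Mitotic genes moved both ways. Of 24, 9 fell and 5 rose (median -0.17). Without the 5 C libraries 8 fell and 2 rose, and with exon length taken out 7 fell and 2 rose. Ccnb2, a mitotic cyclin, read 3848, 4672 and 4341 at E11.5 and 2887, 2810.0 and 2446 at E13.5 (-0.66 ± 0.14, SE, adjusted p = 7.2e-04), and Ube2c, the ubiquitin-conjugating enzyme of the anaphase-promoting complex, read 7805, 9762 and 8842 at E11.5 and 5982, 5922 and 4884 at E13.5 (-0.65 ± 0.15, SE, adjusted p = 0.0015). Mki67, the proliferation marker Ki-67, read 17679.5, 11757 and 12796 at E11.5 and 33146, 36935 and 29238 at E13.5 and rose (1.25 ± 0.25, SE, adjusted p = 3.7e-04). The genes that fell had a median exon length of 2600 bases and those that rose one of 9013 bases. Cenpf was called higher (0.75), was at 0.01 with exon length taken out and was not called without the 5 C libraries (0.69). Promoters of mitotic genes are known for CCAAT boxes, bound by NF-Y, and for cell cycle homology regions, TTTGAA, bound by the DREAM and MuvB complexes. RefSeq promoters (GRCm38.p6, from 250 bases before to 50 after the start) were listed for 20 of the 24 genes. CCAAT, on either strand, was in 17 of the 20 (85.0%) and in 37.9% of all 27025 promoters, and TTTGAA, on either strand, was in 14 (70.0%) and in 18.1%. The last 120 bases before the start are shown for genes on either side of the split, in the gene's own orientation, with both motifs, on either strand, in capitals.
Ube2c, fell, chr2:164769809-164769928, plus strand: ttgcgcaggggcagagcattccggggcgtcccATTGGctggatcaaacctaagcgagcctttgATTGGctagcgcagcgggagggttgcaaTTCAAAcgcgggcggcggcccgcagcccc
Cdc20, fell, chr4:118437344-118437463, minus strand: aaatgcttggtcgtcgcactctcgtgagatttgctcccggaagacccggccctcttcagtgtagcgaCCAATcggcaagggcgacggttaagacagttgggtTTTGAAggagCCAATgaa
Top2a, rose, chr11:99024190-99024309, minus strand: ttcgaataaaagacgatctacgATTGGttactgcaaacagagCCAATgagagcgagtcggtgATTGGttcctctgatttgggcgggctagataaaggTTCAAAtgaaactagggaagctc
Kif11, rose, chr19:37376262-37376381, plus strand: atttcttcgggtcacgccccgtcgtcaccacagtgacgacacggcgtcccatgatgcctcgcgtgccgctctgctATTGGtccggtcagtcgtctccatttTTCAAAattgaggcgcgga
Both motifs were thus in promoters of genes called lower and of genes called higher. The calls of those shown were not all stable. Top2a was not called without the 5 C libraries (0.41), without WT library B of E11.5 or B of E13.5 (0.35 to 0.38), or with exon length taken out (0.07). Kif11 was not called without the 5 C libraries (0.26), without WT library B or C of E11.5 or B of E13.5 (0.19 to 0.26), or with exon length taken out (0.02). Cdc20 was not called with exon length taken out (-0.22). Ube2c and Cdc20 (-0.50) have exon lengths of 2600 and 1868 bases, and Top2a (0.44) and Kif11 (0.28) have 9013 and 7461 bases. Cdk1, not shown, also had both motifs in these 120 bases. It fell (-0.55) and has an exon length of 4934 bases.

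Ribosomal protein genes fell. Of 82 genes for cytosolic ribosomal proteins 73 fell and none rose (median -0.57). Rps2 read 31823, 41934 and 37252 at E11.5 and 20809.6, 21971 and 17203 at E13.5 (-0.89 ± 0.18, SE, adjusted p = 3.7e-04), and Rpl11 read 13140.4, 18134 and 16442 at E11.5 and 8796, 9477 and 8559 at E13.5 (-0.82 ± 0.15, SE, adjusted p = 1.5e-04). In the cKO course 20 fell and none rose (median -0.35). These are short transcripts, with a median exon length of 1754.5 bases. With exon length taken out 48 fell and none rose (median -0.30), and 44 fell without the 5 C libraries, 48 without WT library B of E11.5 and 47 without C of E13.5. Near-identical pseudogene copies of these genes may share their reads.

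Metabolic lists gave mixed changes. Of 20 genes of glycolysis and the hypoxia response 7 fell and 3 rose (median -0.30). Ldha, lactate dehydrogenase A, read 39437, 35437 and 36657 at E11.5 and 17132, 29288 and 14491 at E13.5 (-0.94 ± 0.23, SE, adjusted p = 0.0019), and Aldoa (-0.85), Pgk1 (-0.74) and Gapdh (-0.58) fell too. Pfkp (1.55 ± 0.25, SE), the neuronal enolase gene Eno2 (1.05 ± 0.15, SE) and Vegfa (0.91 ± 0.21, SE), the vascular growth factor, rose. Without WT library B of E13.5, 12 glycolysis genes fell (median -0.58), and without C of E13.5 it was 4 (median -0.09). Aldoa was not called without the 5 C libraries (-0.86), or without WT library A or C of E13.5 (-0.65). Of 20 genes of cholesterol synthesis 11 fell and 1 rose (median -0.31), Pmvk by most (-0.65 ± 0.15, SE). Without the 5 C libraries 4 glycolysis genes and 8 cholesterol genes fell, and no cholesterol gene rose. In the cKO course 1 cholesterol gene fell. Of 14 imprinted genes Mest (-1.49 ± 0.19, SE), Peg10 (-1.16 ± 0.13, SE), H19 (-1.62 ± 0.57, SE), Igf2 (-1.15 ± 0.45, SE) and Grb10 (-0.33) fell, and Meg3 (0.90 ± 0.30, SE), Ndn (0.87 ± 0.27, SE) and Peg3 (0.69 ± 0.22, SE) rose. H19 and Igf2, fetal growth genes abundant in mesenchyme, were not called without the 5 C libraries, when 1 imprinted gene rose and 2 fell. Meg3 was not called without the 5 C libraries (0.89), without WT library B of E13.5 (0.72), or with exon length taken out (0.05). Peg3 was not called without the 5 C libraries (0.68), or with exon length taken out (0.06), nor Ndn without WT library A of E11.5 or C of E13.5 (0.48 to 0.67). Grb10 was not called without the 5 C libraries (-0.35), or without WT library A of E11.5 or C of E13.5 (-0.24 to -0.20). H19 was not called without WT library C of E13.5 (-1.23), and Igf2 was called in none of the fits without WT library A, B or C of E11.5 or A or C of E13.5 (-1.21 to -0.80). Of 7 protein genes of the mitochondrial genome mt-Nd6 (-0.62) and mt-Nd2 (-0.43) fell, neither of them without the 5 C libraries, nor without WT library B or C of either age (-0.61 to -0.34), whereas 6 of the 7 rose in the cKO course. Of the 7, 2 were called higher and none lower with exon length taken out (median 0.17, against -0.19 without this step).

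Genes of the cortical hem fell. Of 12 hem genes 7 fell and none rose (median -1.50), and 6 fell in the cKO course. Wnt8b, a WNT ligand of the hem and medial wall, read 3218, 415 and 1188 at E11.5 and 4.81, 9.44 and 0 at E13.5. It was near 0 in every E13.5 library, and the E11.5 libraries themselves differed widely (-8.22 ± 0.66, SE, adjusted p = 3.4e-08). Msx2, a target of BMP signals, read 192, 751 and 573 at E11.5 and 2.88, 14.2 and 1.88 at E13.5 (-6.30 ± 0.94, SE, adjusted p = 2.6e-05), and Rspo1, which encodes a potentiator of WNT signals, read 1154, 156 and 509 at E11.5 and 3.84, 10.4 and 4.70 at E13.5 (-6.06 ± 1.05, SE, adjusted p = 1.1e-04). Library A was lowest of the E11.5 libraries for Msx2 and highest for Wnt8b. Msx1 (-2.57 ± 0.62, SE), Lmx1a (-2.36 ± 0.52, SE), Rspo2 (-1.41 ± 0.51, SE) and Bmp7 (-0.79 ± 0.33, SE) fell as well. Rspo2 was not called without the 5 C libraries (-1.42), or without WT library A of E11.5 or A or C of E13.5 (-1.34 to -0.89), nor Bmp7 without the 5 C libraries (-0.85), without WT library A or C of E11.5 or A or C of E13.5 (-0.88 to -0.51), or with exon length taken out (-0.75), and 5 of the 12 fell without the 5 C libraries. Bmp4 (-1.59 ± 0.88, SE) and Wnt5a (-0.37 ± 0.38, SE) did not pass. The summed level of the list was 7389, 4297 and 5153 at E11.5 and 1339, 1428 and 1148 at E13.5, with no overlap. Of 7 choroid plexus genes 3 were tested. Otx2 fell (-4.54 ± 1.04, SE), and Clic6 (-1.79) was called lower, but not without the 5 C libraries (-1.61), or without WT library A of E13.5 (-1.43). Whether the dissected piece held less of the medial wall at E13.5 was not tested.

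Readouts of WNT and FGF signals fell in part. Of 10 WNT response genes 5 fell and 2 rose (median -0.52). Sp5, a direct WNT target, read 217, 50.1 and 98.3 at E11.5 and 4.81, 7.55 and 2.82 at E13.5 (-4.17 ± 0.81, SE, adjusted p = 3.1e-04). Wif1 (-3.59 ± 1.09, SE) and Dkk1 (-2.91 ± 0.82, SE), secreted antagonists, and the effectors Lef1 (-0.98 ± 0.22, SE) and Tcf7 (-0.86) fell. Axin2 (0.04 ± 0.22, SE), a general WNT target, did not pass, and Nkd1 (0.54) was called higher, but not without the 5 C libraries (0.51), or without WT library C of E13.5 (0.40). Of 10 FGF pathway genes 4 fell and 1 rose (median -0.32). Etv4 (-1.54 ± 0.27, SE), Spry1 (-1.18 ± 0.21, SE) and Dusp6 (-1.04 ± 0.13, SE), induced by FGF signals, fell, and Fgfr3 (0.50 ± 0.18, SE) was called higher, but not without the 5 C libraries (0.50), without WT library A, B or C of E11.5 or B of E13.5 (0.34 to 0.51), or with exon length taken out (0.27). Fgf15, the ligand gene, read 294, 742 and 575 at E11.5 and 15.4, 150.0 and 163 at E13.5 (-2.76 ± 0.79, SE, adjusted p = 0.0059) and was not called without WT library A of E13.5 (-1.67). Of 12 retinoic acid genes 4 fell and none rose (median -0.63), and 2 fell without the 5 C libraries. Crabp2, a retinoic acid binding protein, read 5383, 5724 and 5623 at E11.5 and 1050.4, 1430.5 and 613 at E13.5 (-2.52 ± 0.37, SE, adjusted p = 2.4e-05), and Aldh1a3, a synthesis enzyme of the lateral and ventral forebrain, fell (-2.52 ± 0.63, SE). Rarg was called lower too, but not without the 5 C libraries, nor without WT library B or C of E11.5 or C of E13.5 (-0.63 to -0.42).

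Dorsal patterning factors moved both ways. Of 13 genes 3 rose and 6 fell (median -0.31). Emx1 rose by 1.17 ± 0.30 (SE, adjusted p = 0.003), while Emx2, which sets posterior and medial areas, read 9597, 6449 and 7394 at E11.5 and 4468, 5399 and 3220.4 at E13.5 and fell (-0.85 ± 0.19, SE, adjusted p = 8.3e-04). Sp8, an anterior factor, fell (-1.18 ± 0.18, SE), as did Nr2f2 (-1.20 ± 0.32, SE), Dmrt3 (-1.07 ± 0.29, SE) and Dmrta1 (-0.74 ± 0.17, SE). Bcl11a rose by 0.94 ± 0.07 (SE), with no overlap between the ages. Lhx2 (-0.48 ± 0.19, SE), which suppresses hem fate, was called lower, but not without the 5 C libraries, nor without WT library A or C of E11.5 or C of E13.5 (-0.50 to -0.30). Of 6 antihem genes, Dbx1 (-2.84 ± 0.65, SE) and the WNT antagonist gene Sfrp2 (-0.62) were called lower and Tgfa (1.18 ± 0.15, SE), Nrg1 (0.96 ± 0.16, SE) and Nrg3 (0.92 ± 0.24, SE) rose. Sfrp2 was not called without the 5 C libraries (-0.60), without WT library A, B or C of E11.5 or A or C of E13.5 (-0.65 to -0.58), or with exon length taken out (-0.39).

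Several ventral telencephalic genes fell, while some genes of migrating interneurons rose. Of 16 listed, 7 fell and 3 rose (median -1.15). Without WT library A of E13.5, 5 fell and 3 rose (median -0.42). Gsx2, a factor of lateral ganglionic eminence progenitors, read 409, 324 and 367 at E11.5 and 0, 94.4 and 59.2 at E13.5 (-4.35 ± 1.20, SE, adjusted p = 0.0044). Dlx2, which drives interneuron production, read 1504, 1777 and 1671 at E11.5 and 72.1, 687 and 591 at E13.5 (-2.41 ± 0.53, SE, adjusted p = 8.6e-04). Six3 read 377, 443 and 459 at E11.5 and 0, 38.7 and 103 at E13.5 (-4.73 ± 1.22, SE, adjusted p = 0.0028) and Isl1, a factor of striatal neurons, read 193, 311 and 285 at E11.5 and 0.961, 19.8 and 32.9 at E13.5 (-4.54 ± 0.86, SE, adjusted p = 2.4e-04). WT library A of E13.5 had the least of Six3, Gsx2 and Dlx2, and the E13.5 libraries differed more among themselves than those of E11.5. Sst, the somatostatin gene of interneurons, went from 19.7 ± 6.32 to 205 ± 177 (SD, n = 3), a change of 2.99 ± 0.72 (SE, adjusted p = 0.0017). Lhx6, which marks interneurons from the medial ganglionic eminence, rose by 1.63 ± 0.52 (SE), though it was not called without the 5 C libraries (1.65), or without WT library C of E13.5 (0.95), and Npy rose too. Gad1 (-0.03 ± 0.76, SE), needed to make GABA, did not pass. The summed level of the list was 9934, 11605 and 10853 at E11.5 and 4163, 7182 and 8909 at E13.5. In the cKO course the list median was 0.30, with 1 gene higher and none lower, and the test of the difference between the courses called none of the 16. In the cKO libraries Gsx2 read 8.17 ± 7.73 at E11.5 and 0.346 ± 0.600 at E13.5 (SD, n = 3), and Six3 read 9.27 ± 8.48 and 2.07 ± 1.84. The WT libraries of E11.5 thus carried ventral genes that the cKO libraries of that age largely lacked. The part of the dissected territory in this was not tested. Among 9 oligodendrocyte lineage genes, Olig1 (-3.15 ± 0.50, SE) and Olig2 (-2.62 ± 0.25, SE), which also mark ventral progenitors, fell, and Cspg4 (1.81 ± 0.23, SE) rose. Sox10, which defines the lineage, read 20.9, 12.1 and 7.79 at E11.5 and 0, 45.3 and 1.88 at E13.5 and was called lower without WT library B of E13.5 (-3.00). Of 13 markers of neighbouring brain regions 5 were expressed highly enough to be tested, and Tcf7l2 (-0.56) fell. Lhx9 (-0.54) was called lower, but not without the 5 C libraries (-0.56), or without WT library A, B or C of E11.5 or A or C of E13.5 (-0.58 to -0.42).

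Red cell genes fell. The embryonic globin genes, made by the first, yolk sac derived red cells, all fell, in WT and in the cKO course: Hbb-bh1 (-3.98 ± 0.67, SE), Hba-x (-2.36 ± 0.42, SE) and Hbb-y (-1.27 ± 0.30, SE). Hbb-bh1 read 22458, 25389.5 and 24476 at E11.5 and 1046, 4927 and 687 at E13.5. Summed, the 3 read 198751, 305386 and 257151 at E11.5 and 78728, 123406 and 55289 at E13.5, so every E13.5 library was lower. Of 4 adult globin genes Hbb-bs was called higher (1.39 ± 0.57, SE) and Hba-a1 lower (-0.65 ± 0.25, SE), neither of them without the 5 C libraries. Leaving out 1 of 4 WT libraries, A or C of either age, ended the call of Hbb-bs (0.82 to 1.55), and leaving out B or C of E11.5 or C of E13.5 ended that of Hba-a1 (-0.63 to -0.45). Of 7 red cell genes 6 fell (median -1.50), among them the erythroid factor genes Gata1 (-2.52 ± 0.68, SE) and Klf1 (-2.25 ± 0.48, SE). Some globin genes are near-identical in sequence and may share reads.

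Markers of other cell types gave mixed counts. Of 15 microglia and macrophage genes 7 fell and 1 rose (median -0.43), and 2 fell without the 5 C libraries and 3 without WT library B or C of E11.5 or C of E13.5. Tmem119, a marker of mature microglia, fell (-1.75 ± 0.41, SE) and P2ry12 (0.50 ± 0.20, SE) was called higher, while Csf1r (0.05 ± 0.20, SE), which all these cells need, did not pass. P2ry12 was not called without the 5 C libraries (0.51), or without WT library A or C of E11.5 or A or B of E13.5 (0.38 to 0.53). The summed level was 2118, 3199 and 2827 at E11.5 and 2132, 2163 and 1755 at E13.5. Of 12 endothelial genes Slco1c1, a transporter of the blood-brain barrier, was called higher (1.65 ± 0.54, SE) and Esam (-0.70 ± 0.17, SE) and Slc7a5 (-0.22 ± 0.07, SE) lower. Slco1c1 was not called without the 5 C libraries (1.51), or without WT library A of E11.5 or C of E13.5 (1.20 to 1.39), nor Slc7a5 without the 5 C libraries (-0.25), without WT library C of E13.5 (-0.17), or with exon length taken out (-0.14). The pan-endothelial genes Pecam1 (-0.20) and Cdh5 (-0.20) did not pass, though Pecam1 was called lower without WT library B of E13.5 (-0.42). Of 7 pericyte genes Rgs5 (1.12 ± 0.21, SE), Abcc9 (0.91 ± 0.17, SE) and Cspg4 rose and Kcnj8 (-0.56 ± 0.15, SE) fell. Of 11 genes of meninges and mesenchyme Foxd1 (-1.58 ± 0.41, SE) and Foxc1 (-1.38 ± 0.35, SE) fell, and the sum of the list was 23099, 39605 and 34060 at E11.5 and 21333, 33637 and 13437 at E13.5, so the ages overlapped. The epidermal genes measured, Sfn and Perp, did not pass. Of 9 immediate early and stress genes, Egr1 (-1.58 ± 0.44, SE) fell and Jun (0.67) and Arc (0.65) were called higher. Jun was not called without the 5 C libraries (0.68), or without WT library B of E13.5 (0.52), nor Arc without the 5 C libraries (0.71), or without WT library B of E11.5 or A or C of E13.5 (0.51 to 0.69).

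The steepest single changes lay outside the lists in part. Among genes with a mean of at least 50 at the higher age, the largest rises were those of Eno1b, Kcna1, Csmd3, Adamtsl3, Nxph2, Slc15a2, Kcnh3, Grm5, Nos1, Rasgrf1, Fam135b and Tiam2. Csmd3, a large transmembrane protein gene of neurons, read 4.55, 2.78 and 0.974 at E11.5 and 173, 166 and 205 at E13.5 (5.71 ± 0.43, SE, adjusted p = 1.8e-08). Nos1, neuronal nitric oxide synthase, read 23.7, 12.1 and 16.6 at E11.5 and 561, 247 and 949 at E13.5 (4.84 ± 0.47, SE, adjusted p = 2.6e-07). Tiam2, an activator of RAC proteins in neurons, read 205, 259.7 and 220.0 at E11.5 and 5479.6, 2752 and 8086 at E13.5 (4.44 ± 0.37, SE, adjusted p = 4.4e-08). Slc15a2, a peptide transporter gene of radial glia and astrocytes, read 15.5, 67.7 and 69.1 at E11.5 and 2057, 1468 and 1116 at E13.5 (5.13 ± 0.61, SE, adjusted p = 2.5e-06). The rule that chose these genes required that the ages not overlap. Kcnh3 rose by 5.05 ± 0.53 (SE), Rasgrf1 by 4.68 ± 0.54 (SE), Adamtsl3 by 5.41 ± 0.45 (SE) and Fam135b by 4.54 ± 0.73 (SE). Nxph2 was read in 1 of the E11.5 libraries (0, 0 and 0.974 at E11.5 and 50.9, 10.4 and 153 at E13.5).

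The steepest falls were those of Nr1h5, Wnt8b, Xist, Msx2, Rspo1, Lin28a, Th, Fezf1, Hemgn, Six3, Otx2 and Isl1. Xist is in this order by the rule alone and is not read as a change with age, since it differed between libraries of 1 age and was not called without the 5 C libraries (-6.11), or without WT library A or C of E11.5 or A, B or C of E13.5 (-7.49 to -5.09). Nr1h5, a nuclear receptor gene, read 586, 460.0 and 507 at E11.5 and 0, 0.944 and 0 at E13.5, and it fell in the cKO course too. A single read over the 3 E13.5 libraries remained, so its fitted log2 fold change (-8.69) depends on the added 1. Th, the enzyme that starts catecholamine synthesis, read 224, 226 and 192 at E11.5 and 0, 29.3 and 2.82 at E13.5 (-5.46 ± 0.91, SE, adjusted p = 7.3e-05). Fezf1, a forebrain patterning factor, read 399, 488 and 440.1 at E11.5 and 0.961, 51.9 and 21.6 at E13.5 (-5.06 ± 1.20, SE, adjusted p = 0.0015), and Hemgn, a red cell gene, read 877, 552 and 667 at E11.5 and 16.3, 119 and 3.76 at E13.5 (-5.00 ± 0.92, SE, adjusted p = 1.8e-04). In the next interval, whose WT libraries of E13.5 are the same ones, Tiam2 stood at 20997 ± 1774 (SD, n = 3) at E15.5 and Nos1 at 4648 ± 376 (SD, n = 3), Wnt8b was at 0 in all 3 libraries and Lin28a read 0.326 ± 0.564 (SD, n = 3).

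The fold change followed transcript length. When the 13896 protein-coding genes were ordered by summed exon length in GENCODE M21 and split into 10 deciles, the median log2 fold change went from -0.53 in the shortest decile (median 1438 bases) to 0.65 in the longest (12670 bases), rising at every step. In the shortest decile 6.12% of genes were called higher and 57.3% lower, and in the longest 67.8% higher and 5.04% lower. Genes that rose had a median exon length of 6637 bases, those that fell 3214 and those not called 4391. The cKO course had the same slope at smaller size, from -0.33 to 0.31.

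**Figure D3:**
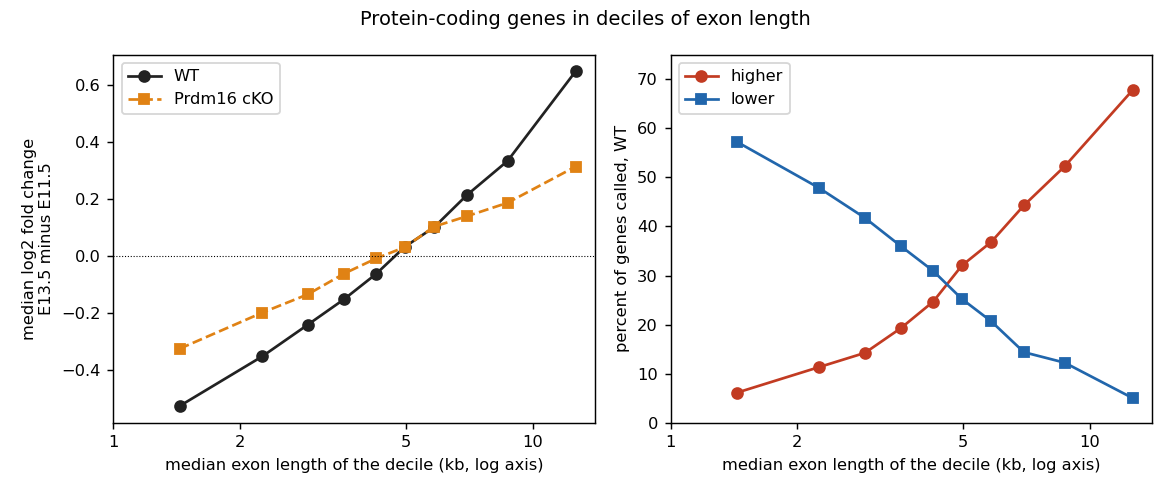
Left, median log2 fold change from E11.5 to E13.5 (vertical axis) of protein-coding genes by decile of exon length (horizontal axis) in WT and cKO. Right, the percent of each decile called higher or lower in WT, which runs from 6.12% higher and 57.3% lower in the shortest decile to 67.8% and 5.04% in the longest.

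The trend was not shared evenly by libraries of an age. Each library's log2 deviation from the mean of all 24 was taken per gene, and the median of the shortest decile was subtracted from that of the longest. This gave -0.41, -1.02 and -0.83 in the WT libraries A, B and C of E11.5 and 0.33, 0.45 and 0.47 in those of E13.5, so the ages did not overlap. In the cKO libraries it was -1.38, -0.24 and -1.27 at E11.5 and -0.69, 0.15 and -0.27 at E13.5, and the ages overlapped. Long transcripts include many of the synaptic and channel genes, and short ones the ribosomal genes, so the list counts above and this trend touch the same genes. Taking a smooth trend of the deviation on exon length out of each library left 8679 genes called, 4313 higher and 4366 lower. Of the 9392, 7300 were called again, 90 of them in the opposite direction. Early progenitor (9 lower), gliogenic (5 higher), intermediate progenitor (10 higher), hem (6 lower), embryonic globin (3 lower) and ventral genes (3 higher, 7 lower) kept counts close to those above. The sources used here give no RNA integrity per library, and its part in the trend was not tested.

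**Figure D4:**
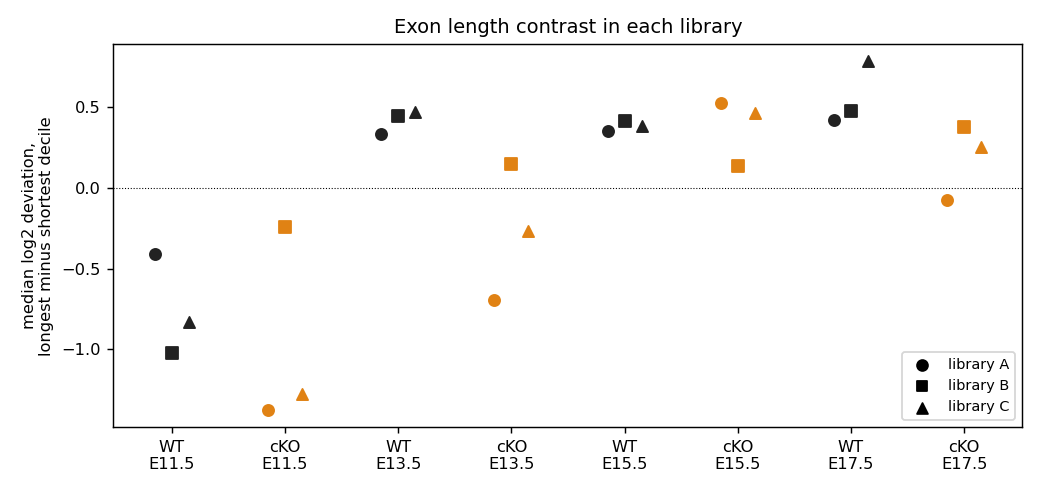
Median log2 deviation of the longest decile of genes minus that of the shortest decile (vertical axis, log2 units), 1 point for each of the 24 libraries, by group. WT libraries of E11.5 lie between -1.02 and -0.41 and those of E13.5 between 0.33 and 0.47, while the cKO libraries of these ages overlap.

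Few differences between the WT and the cKO course were called, and their number depended on the method (461 with DESeq2). A test of the difference itself called 48 genes (0.299%), 23 with the larger value in WT (0.143%) and 25 with the smaller (0.156%), and 2856 genes had an unadjusted p under 0.05. Without the 5 C libraries 7 of the 48 were called. The most certain cases arose from WT at E11.5. Eno1b, a gene on chromosome 18 whose sequence is nearly that of Eno1, read 3.64, 3.71 and 2.92 in the WT libraries of E11.5 and 3815, 3324 and 4152 in the cKO libraries of that age. By E13.5 the WT libraries held 2089, 3036 and 896. Masp2, Gm5855 and Gm13225 had the same pattern, with 0.910 to 6.49 reads in WT at E11.5 and 92.5 to 391 in cKO. Eno1b therefore heads the WT risers through 3 libraries near 0, whereas its cKO course was -0.60 ± 0.31 (SE, adjusted p = 0.15). Thsd4, a gene of the extracellular matrix, read 413, 600.1 and 508 at E11.5 and 1526, 2253 and 1634 at E13.5 in WT. In cKO it read 209, 353 and 208, then 129, 174 and 165, a difference between the courses of 2.51 ± 0.32 (SE, adjusted p = 0.00056) that was also called without the 5 C libraries.

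**Figure D5:**
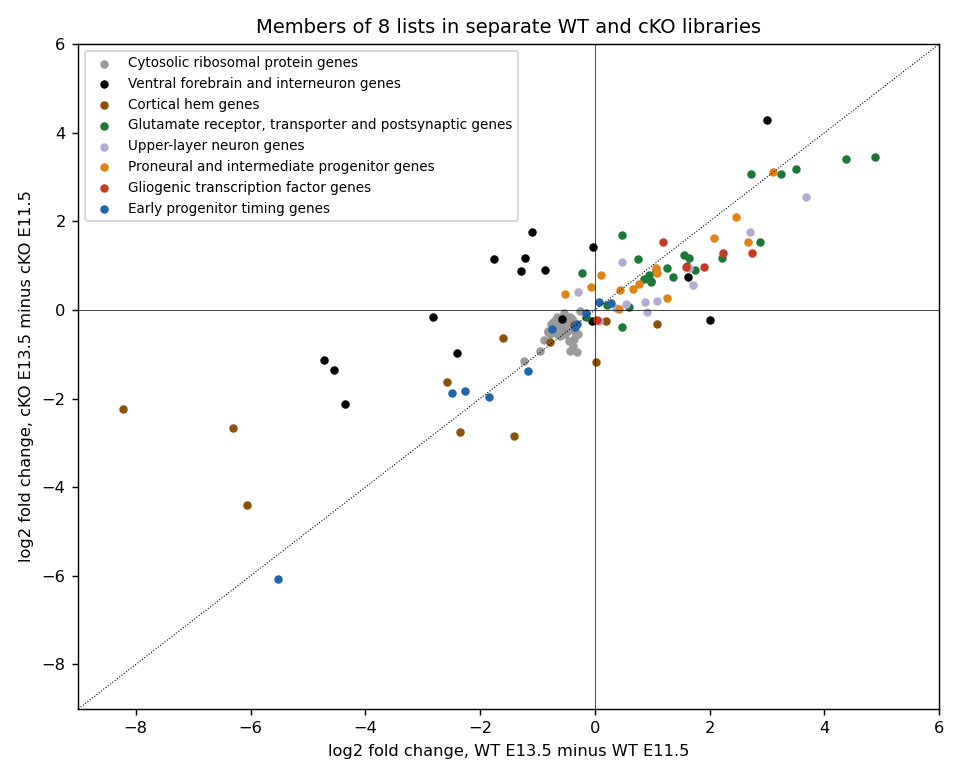
Log2 fold change from E11.5 to E13.5 in cKO (vertical axis) against WT (horizontal axis) for the members of 8 gene lists, each point a gene. Early progenitor, hem and ribosomal genes lie mostly at negative values on both axes and gliogenic and synapse genes at positive values, while several ventral genes have negative values in WT and values near or above 0 in cKO.

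Further differences concern regulators named above. Wnt8b was higher in the cKO libraries of E13.5 (510.1, 690.1 and 549) than in any WT library of that age, and the courses differed by -5.97 ± 0.94 (SE, adjusted p = 0.0046). Olig2 read 17.9, 20.9 and 20.3 in the cKO libraries of E11.5 against 279, 294 and 274 in WT, a difference between the courses of -2.08 ± 0.36 (SE, adjusted p = 0.012). Cdk6, a kinase of G1, rose more in WT than in cKO, by 1.08 ± 0.21 (SE, adjusted p = 0.026). None of these 3 was called without the 5 C libraries. The genes of the early progenitor, gliogenic and glutamate synapse lists gave no call in this test, which does not show that their courses were alike.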

How the data were processed

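PolyA-selected RNA of cortical ventricular zone was sequenced in 24 libraries, 8 groups of 3, and the 6 WT libraries of E11.5 and E13.5 are described here. Per the labels' protocols, 125 to 150 ng of total RNA entered a stranded TruSeq mRNA preparation. The submitters' processing notes list DESeq 1.22.1, HTSeq 0.5.3, STAR 2.5.0a and cutadapt 1.6, and the build mm10 (GRCm38). The sources used here do not give their order and settings. The authors deposited 1 table whose signal is a normalized read count, reads divided by 1 size factor per library. All values (100%) were whole multiples of 1 read within 0.01, so whole reads were recovered, 25639836 to 38879931 per library over the series. At the minimum value of 10 a fold change rests on few reads. Of the gene identifiers, 22411 (99.5%) matched GENCODE M21. Spreadsheet dates had replaced 25 symbols, which were restored from the identifiers.

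Genes with a value of at least 10 in at least 3 of the 6 libraries were tested with limma 3.58.1 (R 4.3.3) on log2(value + 1), with a variance trend and 1 mean for each of the 8 groups. P-values were two-sided, adjusted after Benjamini and Hochberg over 16054 genes, with a threshold of 0.05. Fold changes on this scale understate the change of low genes. E13.5 minus E11.5 was tested in WT, in cKO and as the difference between both. As alternatives, pseudocounts, filters, TMM factors, no trend, the letter as a block, only the groups compared, each WT library left out, the 5 C libraries left out, a log2 change of at least 1, DESeq2 1.42.0 and the quasi-likelihood test of edgeR 4.0.16 on recovered reads were run. The edgeR test called 9566 genes in WT. Exon length centring and each cKO library left out were added after seeing the data. The centring takes a lowess trend on log2 exon length out of each library. On simulated counts of 16054 genes with 200 changed by a log2 of 1, limma recovered 163 (81.5%) and called 9 unchanged genes. The simulated libraries were independent, with no length trend and no library close to a sum of others. The simulation therefore does not gauge false calls that such features of the data could bring.

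The genes and the 45 lists described were chosen with earlier results of these data known. Named are the 12 highest and 12 lowest log2 fold changes among called genes whose higher group had a mean of 50 or more, with no overlap between ages and no predicted, clone or pseudogene name. Up to 4 called members of each list by size of change, 7 check genes and the 8 smallest p-values of the difference between courses were added. Other list members and host transcripts appear with their values and were chosen after these were seen. Some genes that the rule or the lists hold are not reported here by name. Figures were drawn with matplotlib 3.10.9 in Python 3.11.15.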

Additional observations from a re-analysis of the deposited data

Results flagged for a closer look

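In 15 genes named here, out of the 48 called, the WT course from E11.5 to E13.5 differed from the cKO course by the test of the difference itself (limma, adjusted over 16054 genes). The values are log2 fold changes in WT minus those in cKO. A set of 4 genes read 0.910 to 6.49 in every WT library of E11.5 and at least 92.5 in every cKO library of that age: Eno1b differed by 9.262, Gm5855 by 5.303, Gm13225 by 5.888 and Masp2 by 3.776. Gm43305 differed by -4.874, being listed at 0 in the cKO libraries of E11.5 and at 32.8 to 71.1 in WT. Thsd4 differed by 2.505, since it rose in WT (1.82) and not in cKO (-0.68). These 6 differences were also called without the 5 C libraries.

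The remaining 9 were not called without those libraries. The courses differed by -0.8813 for Tprkb, by 1.476 for Lmcd1, by -5.968 for Wnt8b, by -2.077 for Olig2 and by -3.496 for Olig1, a gene that read at most 25.3 in any library of these ages. They differed by -1.105 for mt-Nd5, by -1.091 for Ednrb, the endothelin receptor gene of radial glia, by 1.076 for Cdk6 and by 1.727 for the globin gene Hba-a1. The Hba-a1 values may share reads with its near-identical copy Hba-a2, and those of Eno1b with Eno1. What sets these courses apart was not tested.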

How the results depend on the processing

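The WT count of 9392 genes stayed within 1.5 times under every alternative but 1: a log2 change of at least 1 left 2712. Leaving out single WT libraries gave 7846 to 9365. The cKO count of 4362 moved more, to 724 without the 5 C libraries, 690 with only the groups compared, 1163 with a log2 change of at least 1, and 2127 to 7364 without single cKO libraries. The 48 differences between the courses became 7 without the 5 C libraries, 461 with DESeq2, 138 with exon length centring, 14 with only the groups compared, 31 with a log2 change of at least 1, and 24 to 697 without single libraries (697 without cKO library B of E13.5, 311 without WT library A of E11.5). The cause of these moves was not tested. Among named genes, Pard3 reversed from 0.31 to -0.38 with exon length centring, where 16 others were no longer called. Without the 5 C libraries 28 were no longer called, with edgeR 3 and with DESeq2 2. Deviations of same-lettered WT libraries of both ages correlated by 0.0894 (A), 0.0284 (B) and 0.0027 (C), and C of E11.5 correlated best with B. That comparison is across ages, so it cannot show whether the letter pairs WT with cKO embryos. Same-lettered WT and cKO libraries correlated by -0.434 (A), -0.524 (B) and 0.136 (C) at E11.5. At E13.5 these values were 0.0064 (A), -0.0617 (B) and -0.0191 (C). What the letter marks is not known from these values. The replicate block gave 9360 genes in WT, 4310 in cKO and 39 differences. Depth was similar in the 6 libraries, and genes near the filter's minimum of 10 are the least precise.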
